A study of Mus musculus with 20 samples.

Results

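Binding of the transcription factor POU4F1 was set against the histone mark H3K27ac in ganglia of mouse embryos, with the peak lists of both POU4F1 libraries each taken alone. The members are 4 of the 20 libraries of the study, chosen by their labels: POU4F1 replicates 1 and 2, which hold 34249 and 29096 peaks, and H3K27ac replicates 2 and 3, which hold 106628 and 168144. Peak lists of 14 libraries were at hand, with 700128 peaks on chromosomes 1 to 19, X and Y, and the 6 IgG control libraries were not analysed here. All libraries come from C57BL/6J embryos at E11.5 and from tissue labelled CVG, the usual abbreviation of the cochleovestibular ganglion, which gives rise to the hearing and balance neurons of the inner ear. They were made by CUT&Tag, in which an antibody brings a transposase to its target so that nearby DNA is cut out and sequenced. The labels name no treatment or altered allele, and they do not say whether 2 libraries of an antibody came from separate embryos or dissections.

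POU4F1, also called BRN3A, is a POU homeodomain protein of sensory neurons that is needed for their differentiation, axon growth and survival. Acetylation of histone H3 at lysine 27 marks promoters and enhancers in use, so a factor's peak on this mark lies in chromatin that is active in at least some of the cells. Whole ganglia hold neurons, glia and neighbouring cells, and a mark and a factor found at 1 place need not come from the same cell. Among genes nearest to an H3K27ac peak found in both lists were 31 of 31 sensory neuron transcription factor genes and 24 of 24 genes of the neuronal cytoskeleton and RNA-binding list, against 57.2% of all 21883 protein-coding genes. The lists for other cells also had such genes: 10 of 14 for Schwann cell and neural crest, 15 of 21 for otic epithelium and hair cells, 9 of 14 for mesenchyme, 11 of 14 for endothelium and blood, and 5 of 12 for muscle, heart, gut and liver.

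A POU4F1 peak is called acetylated here where it overlaps by at least 1 bp a peak of H3K27ac replicate 2 and a peak of H3K27ac replicate 3. Peaks of 1 library are not replicates of a condition, so shares are given with 95% Wilson intervals for counting error alone, and with no p-value. The depth behind each list is unknown, and both POU4F1 lists are compared with the same 2 H3K27ac lists. H3K27ac replicate 1, with 8855 peaks, serves as an alternative only. Of the replicate 2 H3K27ac peaks 49.5% overlapped replicate 3, and 31.4% the other way, so the acetylated class leaves out many places that a single list holds.

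Promoter windows under acetylated summits show where such binding sits at a gene start. The windows are the 250 bases before the transcription start from RefSeq (GRCm38.p6, the assembly of mm10), written 5′ to 3′ on the gene's strand, and the 21 capitals mark the summit with 10 bases on each side. Nhlh1 and Neurog1, 2 neuronal bHLH genes, are shown for replicate 1, and Efnb2, a guidance ligand, and Gzf1, a zinc finger gene, for replicate 2. Neurog1 was chosen after its values were seen, and the other genes follow the rule for named genes. Nhlh1 lies at chr1:172057597-172057846 on the minus strand, with the summit 97 bases before the start, under the peak ranked 13 of its list. Neurog1 lies at chr13:56252181-56252430 on the minus strand, with the summit 29 bases before the start, rank 264. Efnb2 lies at chr8:8661243-8661492 on the minus strand, with the summit 168 bases before the start, rank 125. Gzf1 lies at chr2:148680870-148681119 on the plus strand, with the summit 127 bases before the start, rank 202.
Nhlh1: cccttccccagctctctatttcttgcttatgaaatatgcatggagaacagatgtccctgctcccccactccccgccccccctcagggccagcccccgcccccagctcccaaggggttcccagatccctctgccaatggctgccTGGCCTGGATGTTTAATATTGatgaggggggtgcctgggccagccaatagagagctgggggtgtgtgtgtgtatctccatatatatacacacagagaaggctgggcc
Neurog1: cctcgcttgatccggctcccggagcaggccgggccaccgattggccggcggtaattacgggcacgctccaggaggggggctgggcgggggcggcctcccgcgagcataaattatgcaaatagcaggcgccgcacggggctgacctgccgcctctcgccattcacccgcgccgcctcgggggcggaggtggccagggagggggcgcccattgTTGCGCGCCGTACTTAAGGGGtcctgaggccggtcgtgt
Efnb2: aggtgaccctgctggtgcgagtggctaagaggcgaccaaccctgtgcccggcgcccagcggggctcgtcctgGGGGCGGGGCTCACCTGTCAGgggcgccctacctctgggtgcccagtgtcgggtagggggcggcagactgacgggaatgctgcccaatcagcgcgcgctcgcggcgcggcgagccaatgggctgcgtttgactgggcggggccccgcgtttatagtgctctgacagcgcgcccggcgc
Gzf1: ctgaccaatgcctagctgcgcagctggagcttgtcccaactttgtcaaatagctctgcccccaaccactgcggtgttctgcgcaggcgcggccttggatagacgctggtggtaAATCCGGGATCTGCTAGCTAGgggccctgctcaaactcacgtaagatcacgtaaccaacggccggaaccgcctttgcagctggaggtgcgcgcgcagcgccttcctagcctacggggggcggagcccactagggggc
The 4 windows are rich in G and C, from 58.4% in Nhlh1 to 72.0% in Efnb2. Letters read as POU or homeodomain sites were searched on both strands: TAATTA, the longer CATAATTA, which contains it, and the octamer ATGCAAAT, added after the sequences were read. The Neurog1 window holds TAATTA starting 199 bases and ATGCAAAT starting 138 bases before the gene start, 170 and 109 bases upstream of the summit. The windows of Nhlh1, Efnb2 and Gzf1 hold none of these letters.

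Over 21262 promoter windows in the table (250 bases before to 50 after a start), 178 held an acetylated summit of replicate 1 and 103 of replicate 2. TAATTA was present in 4.30% of all windows, in 3 of the 178 (1.69%) and in 1 of the 103 (0.971%). CATAATTA was present in 0.447% of all windows and in none of either set. ATGCAAAT was present in 1.58% of all windows, in 4 of the 178 (2.25%) and in 1 of the 103 (0.971%). A match is a description of the letters, and no match says only that they are not in the window.

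Replicate 1 placed a larger part of its peaks on H3K27ac than replicate 2 did. In replicate 1, 4809 of 34249 peaks were acetylated, a share of 14.0% (interval 13.7 to 14.4%), and in replicate 2, 1697 of 29096, a share of 5.83% (5.57 to 6.11%). With a single H3K27ac list the order was the same: replicate 1 stood at 20.7% on H3K27ac replicate 2 and 22.2% on replicate 3, and replicate 2 at 9.60% and 11.4%. Neither list was touched by 71.2% of replicate 1 peaks and 84.8% of replicate 2 peaks. With H3K27ac replicate 1 required as well, the shares were 1.55% and 0.935%.

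The 4 ISL1 lists, from a LIM homeodomain factor of the same neurons, give a scale for these values: 14.7 to 17.7% of their peaks were acetylated by the same rule. POU4F1 replicate 1 lies just under that range and replicate 2 well below it. The bases shared by both H3K27ac lists make up 1.33% of the chromosomes. POU4F1 summits fell inside them in 9.44% of replicate 1 and 3.76% of replicate 2, which is 7.12 and 2.83 times the share of bases.

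The replicates differed most among their strongest peaks. Peaks were ranked within each list by the −log10 q-value that the authors' caller gave (column 9), and divided into 10 deciles, decile 1 being the strongest. The boundary between deciles 1 and 2 lay at a −log10 q of 157.6 in replicate 1, where tied peaks fell on both sides, and at 70.7 and 70.6 in replicate 2. In replicate 1, decile 1 held 1146 acetylated peaks of 3425, a share of 33.5% (31.9 to 35.1%). The share was 14.7% in decile 2 and 13.1% in decile 5, and it reached 8.15% (7.28 to 9.11%) in decile 10. The step in replicate 1 is thus between decile 1 and decile 2, with a shallow slope after it. In replicate 2, decile 1 held 230 of 2910, a share of 7.90% (6.98 to 8.94%), deciles 2 to 6 lay between 6.05% and 6.63%, and decile 10 stood at 3.09% (2.52 to 3.79%). Decile 10 of replicate 1 was thus acetylated about as often as decile 1 of replicate 2, and their intervals overlap.

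**Figure D1:**
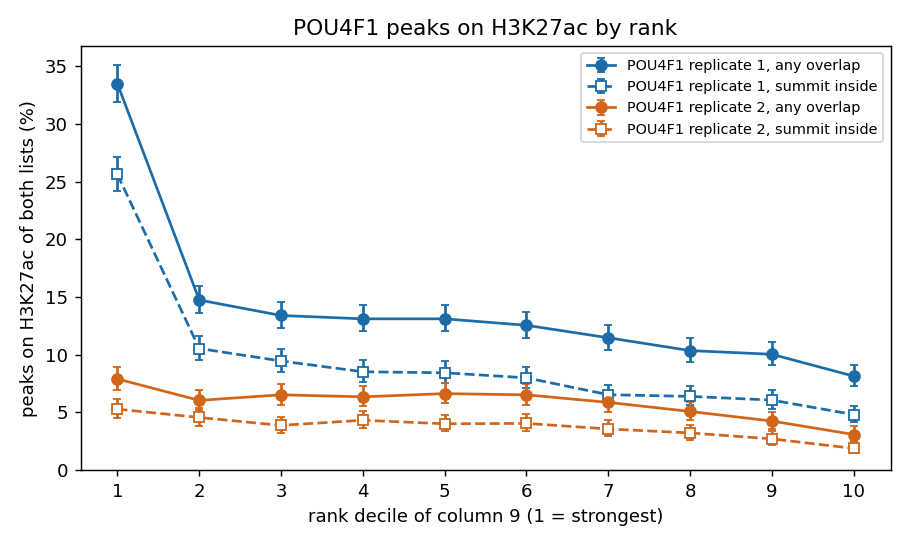
Share of POU4F1 peaks on H3K27ac of both lists (%, vertical axis) in each rank decile of column 9 (horizontal axis, 1 = strongest), for replicate 1 (blue) and replicate 2 (orange), counted by any overlap (filled circles, solid lines) or by the summit (open squares, dashed lines), with 95% Wilson intervals. By any overlap replicate 1 stands at 33.5% in decile 1 and 14.7% in decile 2, whereas replicate 2 stays between 3.09% and 7.90% by any overlap and between 1.89% and 5.29% by the summit.

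The contrast was sharper at the very top. Of the 100 strongest peaks 65 were acetylated in replicate 1 (55.3 to 73.6%) and 14 in replicate 2 (8.53 to 22.1%). Of the 1000 strongest, 505 were acetylated in replicate 1 and 90 in replicate 2. The top decile of the ISL1 lists was acetylated in 51.2%, 55.3%, 49.1% and 31.0%, and decile 10 in 6.83 to 13.0%. Replicate 1 lies inside the ISL1 range for decile 1 and replicate 2 does not. The difference between decile 1 and decile 10 was 25.3 percentage points in replicate 1 (23.5 to 27.1) and 4.81 in replicate 2 (3.65 to 5.99). With H3K27ac replicate 2 left out the difference of replicate 2 was 6.42 points and with H3K27ac replicate 3 left out 7.39, and replicate 1 gave 28.6 and 31.2.

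Peak width moved with both rank and acetylation. Median width in replicate 1 was 494 bp in decile 1, 378 bp in decile 2 and 559 bp in decile 10, and acetylated peaks had a median of 534 bp against 457 bp for the rest. Among replicate 1 peaks under 400 bp, 17.9% of decile 1 and 8.35% of deciles 2 to 10 were acetylated. Among those of 1000 bp or more, 62.9% of 445 decile 1 peaks and 42.7% of 405 others were acetylated. The higher share of decile 1 in replicate 1 was thus present in every width class, with 35.6% against 12.0% at 400 to under 600 bp and 40.1% against 15.6% at 600 to under 1000 bp. In replicate 2, decile 1 peaks under 400 bp stood at 5.43% against 4.93%, and those of 600 to under 1000 bp at 18.5% (14.0 to 23.9%) against 6.33%. Decile 1 of replicate 2 holds 40 peaks of 1000 bp or more, of which 10 were acetylated.

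Distance to gene ends set the second axis. Classes were made from the distance between a summit and the nearest end, either 5′ or 3′, of a protein-coding gene. Under 1 kb, 937 of 2171 replicate 1 peaks were acetylated (43.2%, 41.1 to 45.3%), and 491 of 1421 replicate 2 peaks (34.6%, 32.1 to 37.1%). At 1 to 10 kb the shares were 15.7% and 7.29%, at 10 to 50 kb 14.6% and 5.55%, and over 50 kb 8.93% (8.49 to 9.39%) and 2.45% (2.20 to 2.72%). The replicates were thus closest beside gene ends and farthest apart, as a ratio, in the class over 50 kb.

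The H3K27ac lists themselves are dense near gene ends, so summits were also set against the covered bases. Both lists together cover 9.17% of bases under 1 kb from a gene end, 1.91% at 1 to 10 kb, 1.51% at 10 to 50 kb and 0.584% over 50 kb. Replicate 1 summits fell inside them 3.49, 5.48, 6.35 and 9.87 times as often as the bases in these classes. For replicate 2 the ratios were 2.94, 2.51, 2.15 and 2.17. Relative to the bases, replicate 1 thus had its highest ratio far from gene ends, and replicate 2 its highest ratio next to them.

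**Figure D2:**
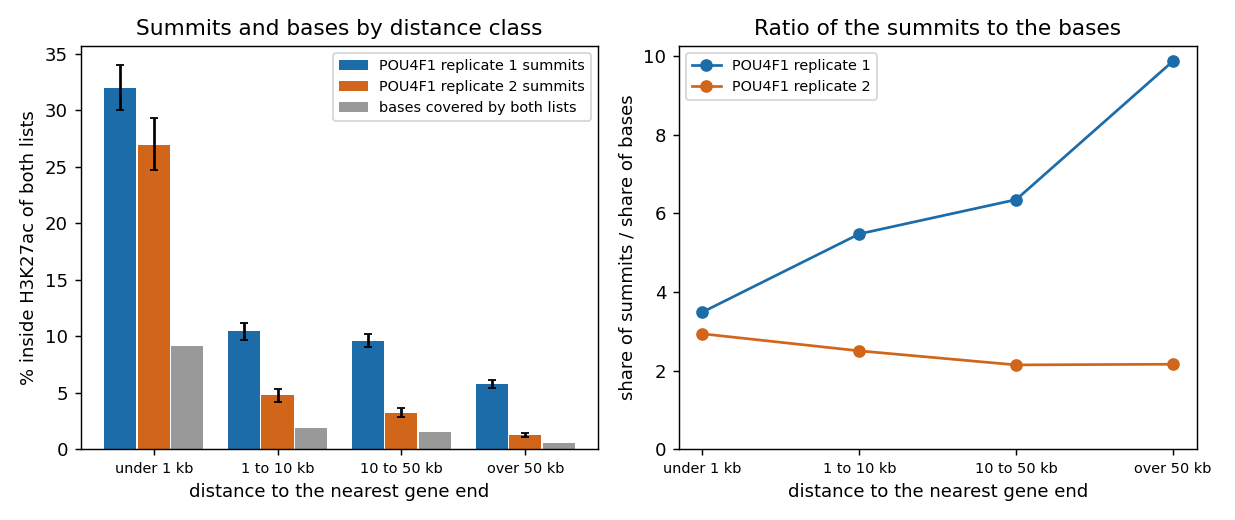
Left, the share (%) of POU4F1 summits that lie inside peaks of both H3K27ac lists (blue, replicate 1; orange, replicate 2; 95% Wilson intervals) and the share of bases that both lists cover (grey), by distance to the nearest gene end. Right, the ratio of the summit share to the base share, which goes from 3.49 to 9.87 in replicate 1 and from 2.94 to 2.17 in replicate 2.

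Which gene end was near made a further difference, as far as a RefSeq promoter gives the strand (17491 of the genes). Peaks under 1 kb from a 5′ end were acetylated in 51.6% of 1310 cases in replicate 1 and 48.2% of 766 in replicate 2, and the intervals (48.9 to 54.3% and 44.7 to 51.7%) overlap. Near a 3′ end the shares were 12.8% of 413 and 8.51% of 376. At 1 kb or farther, peaks inside a gene stood at 16.2% in replicate 1 and 7.79% in replicate 2, and peaks outside genes at 8.54% and 2.23%. Where the table gives no strand, peaks under 1 kb stood at 46.4% of 448 (41.9 to 51.1%) and 32.3% of 279 (27.1 to 38.0%), with intervals apart. The intervals of the replicates thus overlapped at gene starts of known strand, whereas away from gene ends the intervals of replicate 1 lay well above those of replicate 2.

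Rank and distance together show where the strongest peaks of replicate 1 stand out. Its decile 1 was acetylated in 59.1% under 1 kb, 35.6% at 1 to 10 kb, 35.7% at 10 to 50 kb and 25.3% over 50 kb. Its decile 10 gave 38.8%, 8.81%, 8.56% and 4.54% in the same classes. In replicate 2, decile 1 gave 40.0%, 9.63%, 6.78% and 3.39%, and decile 10 gave 26.3%, 3.71%, 3.83% and 1.32%. Over 50 kb from a gene end, 380 of the 1503 decile 1 peaks of replicate 1 were acetylated. Places far from gene ends, some of them inside long genes, are thus a large part of its strong acetylated set.

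**Figure D3:**
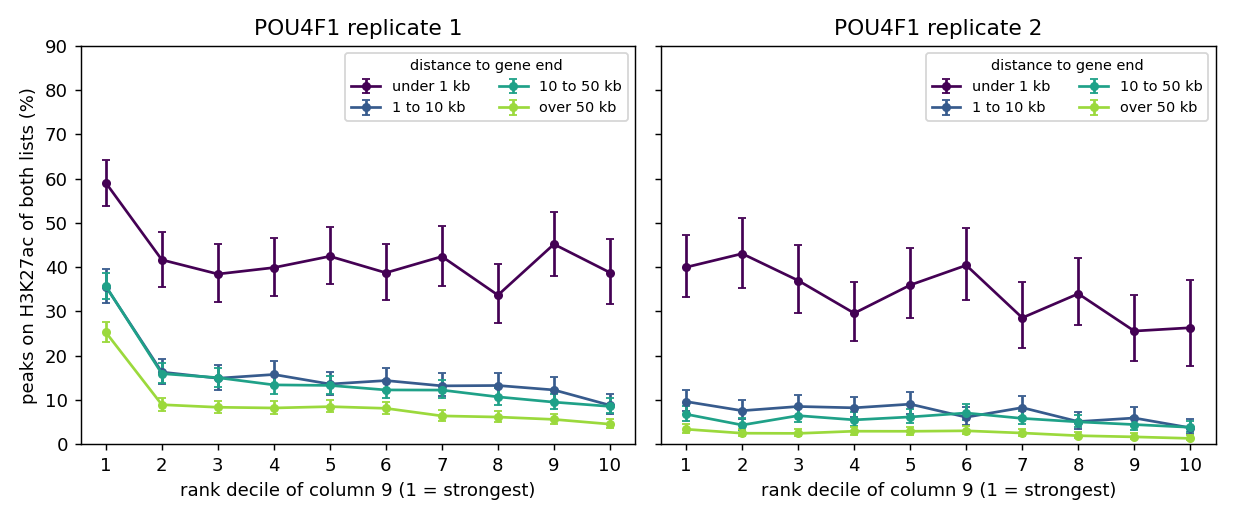
Share of POU4F1 peaks on H3K27ac of both lists (%, vertical axis) by rank decile of column 9 (horizontal axis, 1 = strongest), 1 line per class of distance to the nearest gene end, with 95% Wilson intervals; left replicate 1, right replicate 2. In replicate 1 every class is highest in decile 1 (59.1% under 1 kb, 25.3% over 50 kb), and in replicate 2 the classes beyond 1 kb stay under 10% in every decile.

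Acetylated peaks as a set were closer to gene ends than the rest. Their median distance was 17.9 kb in replicate 1 against 45.4 kb for other peaks, and 8.34 kb against 46.9 kb in replicate 2. They lay inside a gene in 63.3% (other peaks 44.7%) and 69.4% (37.5%). Decile 1 made up 23.8% of the acetylated peaks of replicate 1 and 13.6% of those of replicate 2. Peaks under 1 kb made up 19.5% and 28.9% of them. The acetylated set of replicate 2 is thus tilted to gene ends and that of replicate 1 to its own strongest peaks.

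The H3K27ac peaks under POU4F1 ranked higher than the H3K27ac peaks found in both lists as a whole. The median rank percentile of the H3K27ac replicate 2 peak under an acetylated POU4F1 peak, where low is strong, was 13.7% for POU4F1 replicate 1 and 15.7% for replicate 2. For H3K27ac replicate 3 the medians were 9.62% and 10.6%. Over all peaks of H3K27ac replicates 2 and 3 that overlap the other list, the medians were 32.1% and 21.8%. Where several H3K27ac peaks lay under a POU4F1 peak the strongest was taken, whereas the medians over all peaks count each peak once. Seen from the mark, 9.70% of the 52760 H3K27ac replicate 2 peaks that overlap replicate 3 held a peak of POU4F1 replicate 1 and 3.59% one of replicate 2. Among those in decile 1 of that list the shares were 19.4% and 7.27%, and in decile 10 they were 3.93% and 2.04%. These H3K27ac peaks were also wider when stronger, with medians of 1549 bp in decile 1 and 372 bp in decile 10. The part of width in these shares and in the median percentiles above was not tested.

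Other libraries moved with acetylation at POU4F1 peaks. At least 1 ISL1 list had a peak on 62.2% of the acetylated and 15.7% of the other replicate 1 peaks, and on 48.7% and 9.42% in replicate 2. At least 2 ISL1 lists did so on 33.4% and 3.39% in replicate 1 and on 18.2% and 1.00% in replicate 2. H3K4me3 replicate 2, a mark of promoters, lay on 18.9% of acetylated and 1.59% of other peaks in replicate 1, and on 26.5% and 1.16% in replicate 2. H3K4me3 replicate 1 lay on 6.47% of acetylated and 3.69% of other peaks in replicate 1, and on 6.31% and 2.15% in replicate 2. Overlap with an ISL1 list was thus more frequent in replicate 1 than in replicate 2, at acetylated peaks and at other peaks alike. At acetylated peaks, overlap with H3K4me3 replicate 2 was more frequent in POU4F1 replicate 2. For H3K4me3 replicate 1 the intervals at acetylated peaks overlap (5.8 to 7.2% and 5.2 to 7.6%). That list is unlike H3K4me3 replicate 2: its longest peak is 87857 bp against 7532 bp. A list of H3K27me3, the Polycomb mark, has a similar longest peak (87687 bp in its replicate 2). H3K27ac replicate 1, which the definition did not use, lay on 529 of the 4809 acetylated peaks and 0.533% of the others in replicate 1, and on 16.0% and 0.325% in replicate 2.

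A gene was counted at an acetylated peak where it is the protein-coding gene whose end is nearest to the summit, which does not show that it is the peak's target. Replicate 1 gave 3111 genes, 14.2% of the 21883, and replicate 2 gave 1464, or 6.69%. Genes found in both numbered 666, which is 3.04% of all genes, 21.4% of the genes of replicate 1 and 45.5% of those of replicate 2. Any peak, acetylated or not, gave 10691 and 10508 genes, of which 6904 were in both (64.6% and 65.7%). With H3K27ac replicate 2 left out, replicate 2 gave 2674 genes and both gave 1326. With H3K27ac replicate 3 left out these counts were 2218 and 1127. Acetylated peaks of decile 1 gave 934 genes in replicate 1 (4.27%) and 223 in replicate 2 (1.02%), with 40 in both.

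The 10 strongest acetylated peaks of replicate 1 had as nearest genes Ell, Ntrk3, Adam11, Tmem178b, Tmem132e, Marchf11, Ptprf, B4galt4, Tef and Skor2. None of the 10 overlapped a peak of replicate 2, beside 2.44% of all acetylated decile 1 peaks of replicate 1. The first, ranked 1 of the whole list, lay 0.429 kb outside the 5′ end of Ell, an RNA polymerase II elongation factor, at 70537229 to 70539707 of chromosome 8, with a fold enrichment of 585 and a −log10 q of 2652. The second lay inside Ntrk3, which encodes TrkC, the receptor of neurotrophin-3 on cochlear neurons, at 78470632 to 78472643 of chromosome 7, 109 kb from a gene end and with a fold of 446. A neurotrophin receptor gene thus holds the second strongest peak of the library, and H3K27ac there is among the strongest 4.34% and 3.58% of its lists.

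Among the others, the mark under the peak ranged from very strong to weak. The Ptprf peak, in the gene of the LAR receptor tyrosine phosphatase, lay on H3K27ac peaks within the strongest 0.174% and 0.0464% of their lists. Adam11, a membrane protein of neurons without protease activity, had its peak 1.86 kb from a gene end, and it was the only one of the 10 with peaks of all 4 ISL1 lists. The Skor2 peak, at a corepressor gene of the SKI family, was the widest at 3496 bp, lay on weak H3K27ac (percentiles 82.5% and 65.3%) and also overlapped peaks of 3 H3K27me3 lists, the Polycomb mark. The folds and q-values are those of the authors' caller and rank peaks within a list only.

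In replicate 2 the 10 strongest acetylated peaks were nearest to Scfd2, Impact, Pbx4, Alad, Hivep3, Klk1b4, Psen2, Ssc4d, Zc3h4 and Celf6. The peak inside Scfd2, 35.6 kb from its end, ranked 3 of the list with a fold of 109. Of the 10, the Celf6 peak overlapped a peak of replicate 1, beside 12.6% of all acetylated decile 1 peaks of replicate 2. Pbx4, a homeobox gene, Alad, an enzyme gene of haem synthesis, Zc3h4, a zinc finger gene, and Celf6, of a splicing regulator, had their peaks 0.098, 0.272, 0.342 and 0.102 kb from a 5′ end. So 4 of these peaks lay within 1 kb of a gene start, against 1 of the 10 in replicate 1. Psen2, of the presenilin family, and Ssc4d, a scavenger receptor gene, had theirs inside the gene at 7.49 and 2.64 kb from an end.

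Of the sensory neuron transcription factor list, 23 of 31 genes were at acetylated peaks in replicate 1 and 12 of 31 in replicate 2. Of all genes, 14.2% and 6.69% were. In both libraries were 11 genes of the list, beside 3.04% of all genes. Such genes have many peaks, 298 and 132 over the list, so the share of their peaks is given beside the count: 27.2% of the list's peaks were acetylated in replicate 1 (22.4 to 32.5%) beside 14.0% of all peaks, and 13.6% in replicate 2 (8.80 to 20.5%) beside 5.83%. Both intervals lie above the share of all peaks, but they treat the peaks of 1 gene as independent. The list was chosen with earlier results of these data known. All 31 genes were also nearest to H3K27ac of both lists, against 57.2% of all genes. Acetylated peaks of decile 1 were nearest to 14 of the 31 genes in replicate 1 and 3 in replicate 2, beside 4.27% and 1.02% of all genes. The counts of genes were 20 to 25 and 7 to 16 under the other settings with 2 H3K27ac lists or 1, and 7 and 4 with all 3 lists.

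Nhlh1, a bHLH gene switched on in newborn neurons, led the list in replicate 1 with rank 13, 0.097 kb from its 5′ end, on H3K27ac at 0.234% and 0.186% of its lists and with peaks of 3 ISL1 lists. In replicate 2 its best acetylated peak ranked 25768 of 29096. Casz1, a zinc finger gene, ranked 78 at 33.5 kb in replicate 1 and 13150 at 37.2 kb in replicate 2. Sox11, a SoxC gene of neuronal differentiation, ranked 120 at 224 kb and 4464 at 150 kb. These 3 genes are at acetylated peaks in both libraries, but far lower in the rank of replicate 2.

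Ebf1 stood high in both libraries, at different peaks. This gene of the early B cell factor family, which acts in neuronal differentiation, had its best acetylated peak at rank 132 in replicate 1 (170 kb from a gene end) and at rank 431 in replicate 2 (160 kb). The first lies at 44837437 to 44838335 and the second at 44777823 to 44778354 of chromosome 11. It had 9 acetylated peaks of 30 in replicate 1 and 1 of 3 in replicate 2. Its relative Ebf3 had 10 of 18 and 1 of 2, with best ranks of 1262 and 2202. Shox2, a homeobox gene of TrkB-class touch neurons, had none of 9 peaks acetylated in replicate 1 and 3 of 11 in replicate 2. The best, at rank 1525, lay 224 kb from the gene end on H3K27ac at percentiles of 20.4% and 71.4%. With 9 peaks, the absence in replicate 1 cannot be told from the 14.0% of all its peaks.

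**Figure D4:**
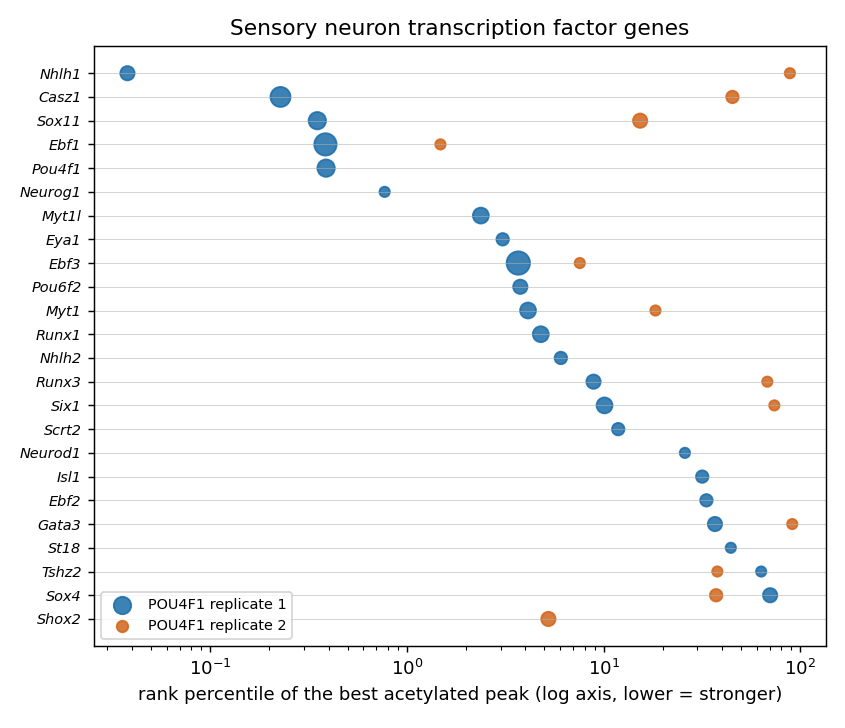
Rank percentile within its list of the best acetylated POU4F1 peak (horizontal log axis, lower is stronger) for the 24 sensory neuron transcription factor genes with such a peak in either library (vertical axis), replicate 1 in blue and replicate 2 in orange; the area of a point grows with the gene's number of acetylated peaks, and a missing point means none. Replicate 1 has a point for 23 genes, from 0.0380% at Nhlh1, and replicate 2 for 12, of which Ebf1 at 1.48% is the lowest.

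The Pou4f1 gene itself had acetylated peaks in replicate 1 alone, 5 of its 15, while none of 5 peaks in replicate 2 was acetylated. The strongest, rank 133, lay 253 kb beyond the 3′ end at 104208231 to 104209490 of chromosome 14. Others lay at 1.07, 2.15 and 72.3 kb from the 3′ end, ranked 1508, 8554 and 2107. The fifth lay 1.43 kb from the 5′ end at 104469304 to 104469966, ranked 2997, on H3K27ac at 1.14% and 1.66% of its lists, and all 4 ISL1 lists had a peak on it. Isl1 had 2 acetylated peaks of 14 in replicate 1, at ranks 10866 and 18155, and none of 10 in replicate 2. Both factor genes were thus at acetylated peaks of replicate 1 and not of replicate 2. Of all peaks, 14.0% were acetylated in replicate 1 and 5.83% in replicate 2. With 5 and 10 peaks, their absence in replicate 2 cannot be told from that share, and the 2 of 14 at Isl1 are near the share of replicate 1.

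The neurotrophin and survival signalling list had 9 of 21 genes at acetylated peaks in replicate 1 and 3 in replicate 2. Of all genes, 14.2% and 6.69% were at such peaks. Of the list's peaks, 23.1% (15.1 to 33.6%) and 8.20% (3.55 to 17.8%) were acetylated, the second interval holding the share of all peaks. Ntrk2, the receptor of BDNF, had 3 acetylated peaks in each library, with best ranks of 1339 and 10265. Ntrk3 had 4 of 21 in replicate 1 and none of 13 in replicate 2. Gfra1, a co-receptor of GDNF, had its best at rank 5223 in replicate 1, and Gfra2, the co-receptor of neurturin, at rank 12234 in replicate 2. With H3K27ac replicate 2 or 3 left out, the count of genes in replicate 2 was 6 or 5.

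Guidance and adhesion genes were at acetylated peaks in 20 of 32 cases in replicate 1 and 14 in replicate 2, beside 14.2% and 6.69% of all genes. Yet their peaks were not acetylated more often than others. The list held 426 and 252 peaks, of which 9.86% (7.38 to 13.1%) and 6.35% (3.95 to 10.1%) were acetylated, the first below the 14.0% of all peaks of replicate 1 and the second near the 5.83% of replicate 2. The leading members in replicate 1 were the Eph receptor gene Ephb2 at rank 204, the axonal adhesion genes Cntn1 at rank 256 and Nfasc at rank 332, and the Eph receptor gene Epha3 at rank 768. In replicate 2 they were Efnb2, an ephrin ligand, at rank 125, Cntn2 at rank 1082, Ephb2 at rank 5068 and Nrp1, a semaphorin receptor, at rank 6316. The Ephb2 peaks of the libraries lay 91.0 and 8.24 kb from a gene end, so receptor and library match but the place does not. In replicate 2 the count was 8 by the summit or by 50% coverage of the peak.

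Growth cone, cytoskeleton and RNA-binding genes were at acetylated peaks mainly in replicate 1. In replicate 1, 14 of 24 were at acetylated peaks, 10 of them at decile 1, and 24.3% of 181 peaks were acetylated (18.6 to 31.0%). In replicate 2, 5 were, 1 of them at decile 1, and 4.96% of 121 peaks (2.29 to 10.4%). All genes stood at 14.2% and 6.69%, or at 4.27% and 1.02% for decile 1, and all peaks at 14.0% and 5.83%. The interval of the list's peaks thus lies above the share of all peaks in replicate 1 and holds it in replicate 2. Gap43, a growth cone protein gene, had its best peak at rank 77 in replicate 1, 0.351 kb from a gene end, with 3 of 12 peaks acetylated, and none of 5 in replicate 2. Elavl4, an RNA-binding protein gene of neurons, ranked 128 in replicate 1, the microtubule regulator gene Stmn2 ranked 608 and the microtubule-associated protein gene Map1b 1041. None of these 4 genes had an acetylated peak in replicate 2, where they had 5, 2, 12 and 1 peaks in this order. With so few peaks, the absence cannot be told from the 5.83% of all peaks. In that library the splicing regulator gene Rbfox1 led at rank 482, ahead of Basp1 at 9131, Stmn1 at 10450 and Rbfox3 at 15872, and the peaks at Basp1 and Stmn1 overlapped peaks of replicate 1. Without H3K27ac replicate 3 the counts were 17 and 9.

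Channel and synapse genes gave 11 of 29 and 4 of 29, beside 14.2% and 6.69% of all genes. Of the list's peaks, 14.2% and 4.49% were acetylated, both near the 14.0% and 5.83% of all peaks. Without H3K27ac replicate 3 the counts were 18 and 6. Kcnq3, a potassium channel gene, led at rank 291 in replicate 1, followed by Piezo2, the channel of touch, at rank 629, Cacna1a, a calcium channel gene, at 1066 and Kcna1 at 1495. Piezo2 led in replicate 2 at rank 4533, ahead of Cacna2d2 at 15091 and Cacna1a at 26836. The Piezo2 peaks lay 109 and 106 kb from a gene end and did not overlap.

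Lists of other cells are shorter, and their intervals for peaks are wide. Schwann cell and neural crest genes gave 3 and 2 of 14, and their 6 acetylated peaks of 38 in replicate 1 were 15.8% (7.44 to 30.4%), with Ednrb, the endothelin receptor gene of the crest, at rank 254, then Mbp at 2166 and Pax3 at 3979. In replicate 2 Sox10, the glial regulator, ranked 3018 and Mbp 14177. Otic genes gave 6 and 2 of 21, with Jag1, a Notch ligand gene, first at rank 1463 in replicate 1, then Pou4f3, Myo7a and Epcam at ranks of 10912, 12136 and 18196. Pou4f3, the hair cell relative of POU4F1, ranked 105 in replicate 2 at 5.16 kb from a gene end, on peaks of 3 H3K27me3 lists as well, and Jag1 ranked 14140. Beside the 14.2% and 6.69% of all genes, the lists for other cells stood at 21.4 to 28.6% in replicate 1, apart from muscle, heart, gut and liver, and at 7.14 to 14.3% in replicate 2. Their peaks were not acetylated more often to the same degree. In replicate 1 the share of peaks was 7.22% for otic genes, 8.33% for mesenchyme and 13.9% for endothelium and blood, beside 14.0% of all peaks. In replicate 2 it ran from 2.50% for mesenchyme to 10.0% for muscle, heart, gut and liver, beside 5.83%. For each of these lists the interval holds the share of all peaks. Without H3K27ac replicate 2 the Schwann and neural crest count of replicate 1 was 5, and without H3K27ac replicate 3 the otic count of replicate 2 was 4. The part of such cells in the lists was not tested.

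Mesenchyme genes gave 3 and 1 of 14, with Col1a2 at rank 277, Foxc1 at 721 and Pdgfra at 33898 in replicate 1 and Tbx18 at rank 151 in replicate 2. Endothelium and blood genes gave 4 and 1 of 14, with Cdh5 first in both libraries at ranks of 385 and 3166, followed in replicate 1 by Emcn at 7200, Egfl7 at 16264 and Ptprc at 29786. The Cdh5 peaks lie 637 and 351 kb from that gene, so the nearest gene is a weak label there. Muscle, heart, gut and liver genes gave none and 1 of 12, which was Tnnt2. Without H3K27ac replicate 2 the mesenchyme counts were 5 and 2, and without replicate 3 again 5 and 2. The endothelium and blood count of replicate 2 was 2 or 3 without H3K27ac replicate 2 or 3, and the muscle, heart, gut and liver counts were 1 and 1, or none and 3. Housekeeping genes gave 1 of 20 in each library (Gapdh in replicate 1), while 17 of the 20 were nearest to H3K27ac of both lists. Without H3K27ac replicate 2 or 3 the housekeeping count was 3 or 2 in each library. Few peaks lay near housekeeping genes at all, 9 in each library.

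**Figure D5:**
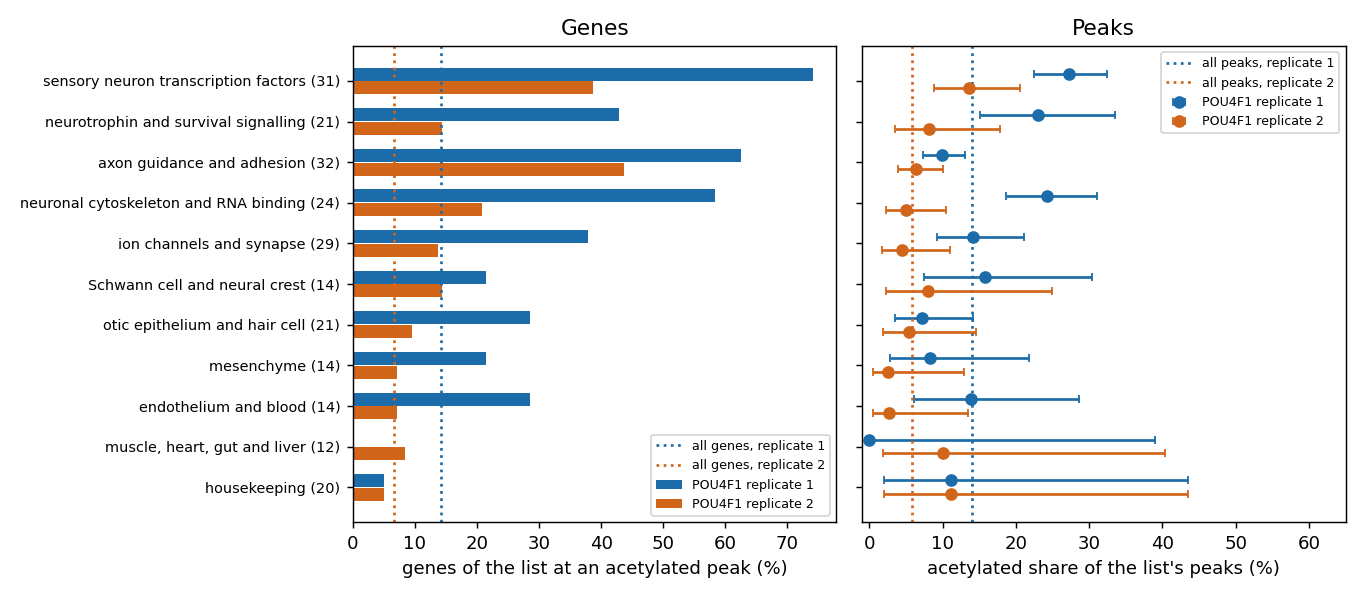
Left, the share (%) of each list's genes, with the number of genes in brackets, that are nearest to an acetylated POU4F1 peak in replicate 1 (blue) and replicate 2 (orange), with dotted lines at the share of all protein-coding genes (14.2% and 6.69%). Right, the acetylated share (%) of the peaks nearest to the list's genes with 95% Wilson intervals, with dotted lines at the share of all peaks (14.0% and 5.83%); the intervals of sensory neuron transcription factors lie above the line in both libraries.

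Some genes gathered many acetylated peaks. In replicate 1 Tenm4, a teneurin adhesion gene, had 14 of 43 peaks acetylated, Tle3, a Groucho corepressor gene, 12 of 30, Zmiz1, a transcriptional coactivator gene, 12 of 22, Arid1b, of the BAF chromatin remodeller, 11 of 37, and Gins2, a DNA replication gene, 11 of 16. In replicate 2 these 5 genes had 3, 1, 2, 2 and 1. In replicate 2 Zfp423, of a zinc finger protein that binds EBF factors, had 5 of 10 peaks acetylated, and 6 acetylated peaks in replicate 1, and Ahdc1, Ccdc85c and Clvs1 had 4 each, with 4, 2 and 3 in replicate 1. The genes named here had acetylated peaks in both libraries. They were chosen for their number of acetylated peaks, so this does not measure agreement between the libraries. Of all genes at acetylated peaks, 70.8% in replicate 1 and 87.5% in replicate 2 had a single one.

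At the level of places the libraries shared little, and more where the mark was. Most peaks of each list, acetylated or not, had no peak of the other library. The overlap that unrelated lists of these sizes would give was not computed, so whether the shares exceed it was not tested. Of the acetylated replicate 1 peaks 170 (3.54%, 3.05 to 4.10%) overlapped any peak of replicate 2, against 1.28% (1.16 to 1.41%) of the other peaks. Of the acetylated replicate 2 peaks 159 (9.37%, 8.07 to 10.9%) overlapped a peak of replicate 1, against 1.41% (1.28 to 1.56%). The higher share at acetylated peaks was seen in each distance class of both lists, for example 2.53% against 1.04% over 50 kb in replicate 1 and 9.55% against 1.11% in replicate 2. In replicate 2 the acetylated peaks overlapped replicate 1 in 12.6% of decile 1 and 11.1% of decile 10. In replicate 1 the acetylated peaks of decile 1 overlapped replicate 2 in 2.44% (1.70 to 3.51%) and the other decile 1 peaks in 1.62% (1.18 to 2.23%), with overlapping intervals.

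Acetylated peaks of both libraries overlapped in 152 pairs at 149 genes, so most of the 666 shared genes had their acetylated peaks at different places. Of the pairs 51 (33.6%) lay under 1 kb from a gene end, 44 of them at a 5′ end, 54 (35.5%) carried H3K4me3 replicate 2 and 110 (72.4%) a peak of an ISL1 list. The summits of a pair lay a median of 266 bp apart, and 28 pairs had them within 100 bp. In 6 pairs both peaks were in decile 1.

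By mean rank percentile the leading pairs were at Gabbr2, Mta2, Il12a, Gzf1, Bmt2, Cic, Tldc2, Mrps23, Uroc1 and Zfp608. The Gabbr2 pair, in the gene of a GABA-B receptor subunit, had ranks of 375 and 843 and lay 122 kb from a gene end, with summits 1028 bp apart. Mta2, of the NuRD deacetylase complex, had ranks of 928 and 1233, 0.120 kb from its 5′ end, with summits 13 bp apart on H3K4me3 replicate 2. Il12a had ranks of 51 and 2366 at 25.9 kb, and Gzf1, whose promoter window is printed above, ranks of 2797 and 202, with summits 20 bp apart and 1.59 kb from the gene's annotated end. Cic, of a transcriptional repressor, had ranks of 457 and 2396 and peaks of 3 ISL1 lists. Bmt2 had ranks of 1114 and 1691, 0.444 kb from its 5′ end. Among these 10, the pairs at Mta2 and Gzf1 had both summits within 100 bp.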

How the data were processed

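The authors' peak lists, 1 per library without pooling, were used as deposited. Per the file headers (the peak names), MACS2 called the peaks, and the submitters' processing notes also name FastQC, Bowtie2, SEACR and the build mm10. What versions, options and controls were used is not given in the sources used here. The deposited columns give each peak's fold enrichment, a ratio to local background, and 2 values of −log10 scale, for the p-value and the q-value, from the authors' caller; they only ranked peaks within a list. A deeper library gives more peaks and so more overlap, and no depth is recorded. Peaks off chromosomes 1 to 19, X and Y were left out (73 and 193 for POU4F1). Ties in column 9 were ordered by columns 8 and 7 and by position.

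Genes were the 21883 protein-coding genes of the RefSeq table for GRCm38.p6, and the nearest gene has the nearest end. The 11 gene lists held 233 genes, of which 232 matched. Members and lists were chosen with earlier results of these data known. By rule the text names, per POU4F1 library, the nearest genes of the 10 acetylated peaks highest in column 9, up to 4 members per list by their best acetylated peak and the 5 genes with the most acetylated peaks (ties by name); then the 10 overlapping pairs with the best mean percentile, Pou4f1 and Isl1. A few genes that the rule selects are not reported here. No test was run, since each list is 1 library. The interval and overlap code was tested on simulated data. Alternatives left out or added an H3K27ac library, required a column 9 of at least 2, the summit inside or 50% coverage, ranked by fold, or took distances from gene bodies and genes from bodies extended by 10 kb. Applying them to the gene lists was chosen after seeing the data. Python 3.11.15, numpy 2.4.6, pandas 2.3.3 and statsmodels 0.14.6 were used.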

Additional observations from a re-analysis of the deposited data

How the results depend on the processing

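Of 63 recomputed values 19 stayed within the interval of the reported value (or within 1.5 times a count), 44 moved and 0 changed sign; replicate 1 was above replicate 2 in share, decile difference and gene count in all of them. With 1 H3K27ac list left out, the share ranged from 20.7 to 22.2% in replicate 1 and 9.60 to 11.4% in replicate 2, the decile difference from 28.6 to 31.2 and 6.42 to 7.39 points, the difference between under 1 kb and over 50 kb (34.2 and 32.1 points as reported) from 37.9 to 40.6 and 36.0 to 38.6 points, and the genes from 4110 to 4406 and 2218 to 2674. Genes of both ranged from 1127 to 1326 without an H3K27ac list and from 1464 to 3111 with 1 POU4F1 list alone, which is that list's own count. With all 3 H3K27ac lists the shares were 1.55% and 0.935%, the decile differences 2.22 and 0.962, the distance differences 15.8 and 14.0 points, and the genes 514, 269 and 47 in both; the third list is short, which limits this setting. By the summit the values were 9.44% and 3.76%, 20.8 and 3.40, 26.3 and 25.7 points, with 383 genes in both. By 50% coverage they were 9.31% and 3.74%, 19.7 and 3.26, 25.8 and 25.8 points, with 380 genes in both. Deciles by fold gave 23.3 in replicate 1, and distance to the gene body 13.0 and 9.49 points, since every peak inside a gene then counts as under 1 kb. No paired analysis was possible because no result comes from a test and the POU4F1 and H3K27ac lists are different targets, not groups compared. The depth of the lists is unknown, and a shorter H3K27ac list lowers every share.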

Other observations

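The Polycomb mark was also found on some acetylated POU4F1 peaks. H3K27me3 replicates 1, 2 and 3 lay on 11.1%, 5.59% and 6.05% of the acetylated peaks of replicate 1, against 1.42%, 3.26% and 5.17% of its other peaks. In replicate 2 the values were 14.6%, 5.48% and 7.78% against 0.880%, 1.95% and 4.05%. The wide contrast comes from H3K27me3 replicate 1, a list unlike the others of that mark: its median fold is 1.99, 14561 of its 19243 peaks share 1 value of −log10 q (1.09), close to the lowest in the list, and its longest peak is 4437 bp against 87687 and 88264 bp. Among the named peaks, those at Skor2, Foxc1, Pdgfra and, in replicate 2, Pou4f3 carried peaks of all 3 H3K27me3 lists. Whole tissue does not show whether both marks are in the same cells.

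The POU4F1 lists also differed outside acetylated chromatin. Replicate 2 had 716 peaks on chromosome Y and 1473 on chromosome X, and replicate 1 had 93 and 1060. The most frequent column 9 value was shared by 615 peaks in replicate 1 and by 1213 in replicate 2.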
